A study of Mus musculus with 8 samples.

Results

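Chromatin accessibility was examined at 8 mouse genes of lipid droplet and cholesterol handling: Hilpda, Plin2, Pnpla2, Lpl, Apoe, Abca1, Abcg1 and Nr1h3. The members were chosen by name, with earlier results of these data known. Every ATAC-seq peak within 10 kb of their gene bodies was taken from the 8 deposited peak lists. Peaks of different libraries that overlapped by at least 1 bp were merged, which left 20 regions at the 8 genes out of 40784 regions in the series, built from 104 of 168859 peaks. Regions are named by gene and by letter in order of increasing coordinate (Lpl-a, Lpl-b, Lpl-c). All coordinates are on mm10 (GRCm38).

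The libraries came from BV2 cells, an immortalised mouse microglial line, with 2 biological replicates in each of 4 groups. In monoculture BV2 cells were by themselves, and in co-culture they had been added to GL261 mouse glioma cells at a ratio of 1 to 2, each for 16 h in normoxia at 21% O2 or in hypoxia below 0.1% O2. All groups shared the medium, formaldehyde fixation, sorting and transposition of 50000 sorted cells with Tn5. The sort was for CD45 or for GFP, and the labels do not say which libraries used which, so the marker may differ between the cultures. Both cell types are 1 established line each, so the replicates sample cultures of 1 line and not animals.

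Lipid droplets store neutral lipid in a phospholipid shell, and microglia and macrophages fill them when uptake or synthesis exceeds breakdown and export. Plin2 coats the droplet, Pnpla2 (ATGL) starts triglyceride breakdown, and Hilpda, a known target of hypoxia-inducible factors, inhibits Pnpla2. Lpl releases fatty acids from lipoprotein triglyceride, while Abca1 and Abcg1 export cholesterol to lipoproteins such as those carrying Apoe, under the control of liver X receptors, one of which Nr1h3 encodes.

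The 2 normoxic monoculture lists were the shortest, with 13333 and 9910 peaks against 21633 to 29658 in the other 6 libraries. At 6314 regions called in all 8 libraries and under 3000 bp wide, the median summit held 25 and 26 fragments in the normoxic monoculture libraries and 45 to 58 in the others. Low depth or signal in that group and loss of accessibility cannot be told apart by the presence of a peak alone, so the member regions gained against normoxic monoculture are given below with what scaling did to them. Gains counted over gene lists were not scaled. Peaks were called at 8 to 12 of 12 microglia and macrophage marker genes per library, and at Ptprc, which encodes CD45, in all 8. Of 12 glioma and glial marker genes, 0 to 2 had a peak in the monoculture libraries and 4 to 8 in the co-culture libraries, while Olig2, Aqp4 and Ptprz1 had none in any library.

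Promoter sequences from RefSeq (GRCm38.p6) were matched for 6 of the 8 genes, and 5 are shown because a called region lay on each of them, so that a reader can see the letters under the peaks described next. Each runs from 250 bases before to 50 bases after the annotated start, 5′ to 3′ on the gene's strand. Capitals mark matches, on either strand, to ACGTG (the hypoxia response element core), GCGTG (its second form), CACGTG (an E-box, which contains the first of these), GAGGAAG (PU.1), TGANTCA (AP-1) or TTGCNNAA (C/EBP).
Hilpda, chr6:29272376-29272675, plus strand: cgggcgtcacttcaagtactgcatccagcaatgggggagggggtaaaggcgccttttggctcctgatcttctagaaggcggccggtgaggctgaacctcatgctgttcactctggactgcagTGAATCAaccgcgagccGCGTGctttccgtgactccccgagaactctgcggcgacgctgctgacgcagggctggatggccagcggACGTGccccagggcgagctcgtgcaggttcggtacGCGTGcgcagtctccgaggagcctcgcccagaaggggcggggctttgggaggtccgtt
Plin2, chr4:86670010-86670309, minus strand: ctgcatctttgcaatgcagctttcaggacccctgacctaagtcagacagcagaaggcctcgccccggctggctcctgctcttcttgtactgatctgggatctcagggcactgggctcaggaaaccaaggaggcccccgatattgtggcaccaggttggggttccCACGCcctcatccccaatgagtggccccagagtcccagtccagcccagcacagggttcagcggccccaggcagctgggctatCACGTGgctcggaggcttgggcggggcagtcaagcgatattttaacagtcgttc
Pnpla2, chr7:141454938-141455237, plus strand: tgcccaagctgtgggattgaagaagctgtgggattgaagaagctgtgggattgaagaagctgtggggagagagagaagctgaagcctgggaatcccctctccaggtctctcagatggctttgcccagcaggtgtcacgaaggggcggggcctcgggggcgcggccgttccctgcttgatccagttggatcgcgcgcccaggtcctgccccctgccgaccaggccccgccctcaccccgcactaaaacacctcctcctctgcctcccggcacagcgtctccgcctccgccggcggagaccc
Apoe, chr7:19699139-19699438, minus strand: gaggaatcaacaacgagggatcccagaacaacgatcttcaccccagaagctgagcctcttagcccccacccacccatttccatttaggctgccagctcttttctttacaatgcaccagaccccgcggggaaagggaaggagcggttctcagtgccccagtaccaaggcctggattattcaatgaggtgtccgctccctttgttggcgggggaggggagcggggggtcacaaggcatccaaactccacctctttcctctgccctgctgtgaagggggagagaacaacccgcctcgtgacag
Abca1, chr4:53159846-53160145, minus strand: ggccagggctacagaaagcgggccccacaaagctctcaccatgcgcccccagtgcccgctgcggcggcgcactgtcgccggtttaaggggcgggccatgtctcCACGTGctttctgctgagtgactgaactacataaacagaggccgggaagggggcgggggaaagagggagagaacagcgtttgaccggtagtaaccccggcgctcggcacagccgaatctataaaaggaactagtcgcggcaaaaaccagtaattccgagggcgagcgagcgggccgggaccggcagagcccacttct

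The Hilpda window held ACGTG at position -43 from its start, GCGTG at -111 and -8, and TGAATCA at -128. The Plin2 window held CACGTG at -4 and, on the other strand, the GCGTG core at -86. The Abca1 window held CACGTG at -147, and the Apoe and Pnpla2 windows held none of these 6 motifs. Among all 32851 RefSeq windows of the same length, ACGTG occurred in 19.6%, GCGTG in 32.4%, CACGTG in 7.15%, GAGGAAG in 13.6%, TGANTCA in 7.81% and TTGCNNAA in 10.8%. The nuclear receptor half-site AGGTCA, left in lower case, occurred in 16.3% and was found on the other strand at -218 in the Plin2 window. The Hilpda and Abca1 windows held 27 and 26 CpG dinucleotides against a median of 7 over all windows. These matches describe letters and were not tested as binding sites.

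Hilpda had a peak over its promoter in 7 of 8 libraries, and that peak held the most fragments in hypoxic co-culture. Region Hilpda-a (chr6:29272267-29272989, 723 bp) covered both annotated starts, at 29272488 and 29272626. The rank is given as a percentile of the deposited −log10 p within a library's own list, where 100 is the strongest peak; lists differ in length, so percentiles describe each list and do not measure a change. Percentiles were 87.3 and 81.0 in hypoxic co-culture, 81.6 and 67.8 in normoxic co-culture, 34.3 and 66.6 in hypoxic monoculture, and 35.4 in the normoxic monoculture replicate 2, with no peak in replicate 1. The summit held 90 and 72 fragments in hypoxic co-culture, above those libraries' medians of 58 and 47 at shared regions. It held 14 in the normoxic monoculture library, 34 and 50 in hypoxic monoculture and 40 and 33 in normoxic co-culture, each below its own library's median at shared regions. The summit also lay at different places: 5 and 4 bp downstream of the first start in the hypoxic co-culture libraries, and 93 to 173 bp downstream of it in the other 5. Those 5 summits lay within 45 bp of the second start, 26, 31 and 45 bp upstream or 34 and 35 bp downstream of it.

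A second Hilpda region, Hilpda-b (chr6:29278623-29279197), lay 3174 bp beyond the gene inside Fam71f2 and was called in the hypoxic co-culture libraries and no others. Its percentiles there were 30.5 and 15.5, with 31 and 21 fragments at the summit. It was the 1 member region gained with hypoxia in co-culture, where gained means called in both libraries of one group and neither of the other.

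**Figure D1:**
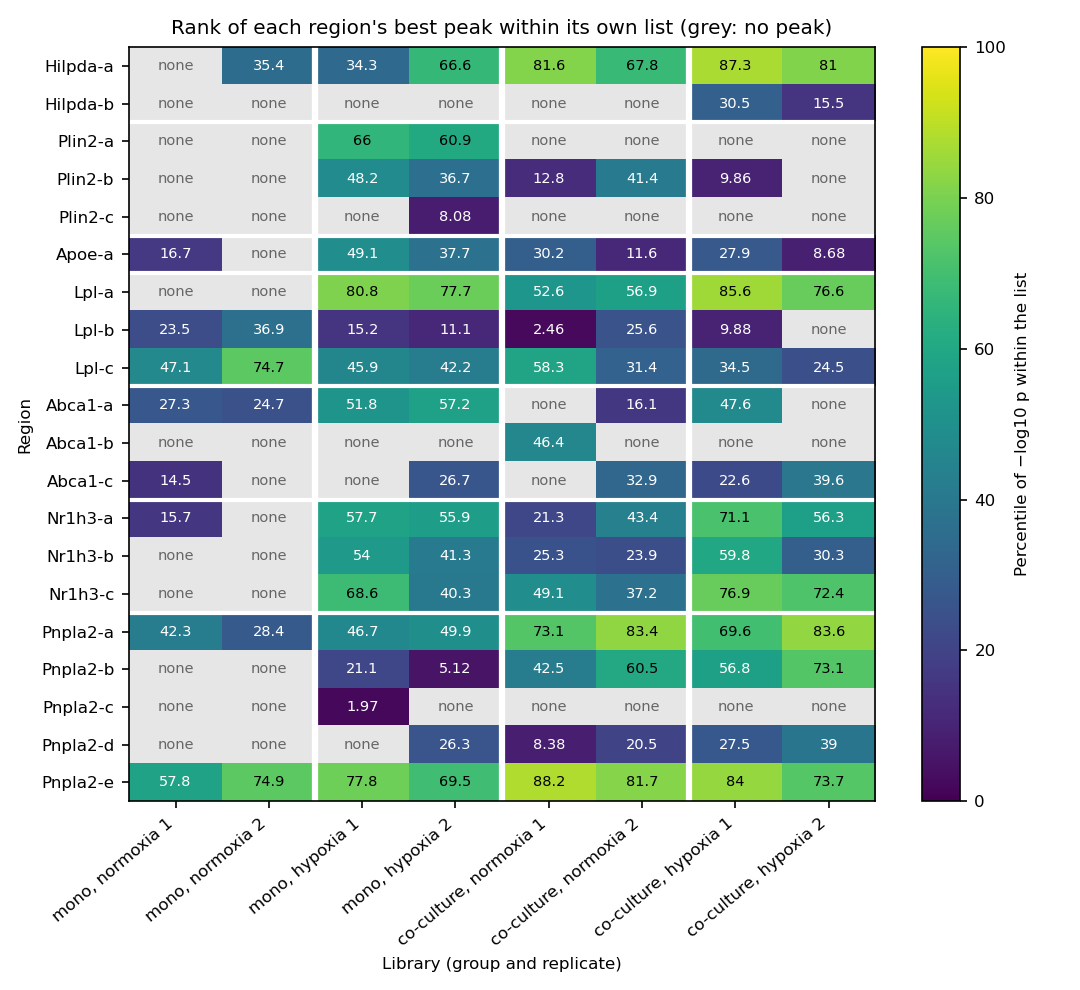
Percentile of the deposited −log10 p within each library's own list (colour and number) for the 20 regions at 7 genes (rows) in the 8 libraries (columns, group and replicate); grey cells had no peak. Lpl-a, Nr1h3-b, Nr1h3-c and Pnpla2-b are grey in both normoxic monoculture libraries and coloured in the other 6, and Plin2-a is coloured in hypoxic monoculture alone.

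Plin2, the droplet coat gene, carried a distal region seen in hypoxic monoculture alone. Plin2-a (chr4:86620306-86620860) lay in no annotated gene, 6050 bp past the 3′ end of Plin2 and 8251 bp from the nearest start, that of Haus6. It was called at percentiles 66.0 and 60.9 in hypoxic monoculture, with 30 fragments at the summit in each library, and in none of the other 6 libraries. It therefore counted as gained with hypoxia in monoculture and as lost with co-culture in hypoxia. With the fragments scaled, down or up, to the shared-region signal of each library that lacked it, both peaks would still have passed that library's lowest called −log10 p.

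The Plin2 start region, Plin2-b (chr4:86669090-86670096), was a weak peak in 5 libraries. Percentiles were 48.2 and 36.7 in hypoxic monoculture, 12.8 and 41.4 in normoxic co-culture and 9.86 in replicate 1 of hypoxic co-culture, with no peak in the other 3 libraries. Summits held 33, 31, 16, 25 and 21 fragments in that order. Hypoxic monoculture had the most fragments, and the 2 hypoxic co-culture libraries disagreed on whether the region was called. Plin2-c, 1876 bp upstream of the gene, was called in 1 library, hypoxic monoculture replicate 2, at percentile 8.08.

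Pnpla2, the triglyceride lipase, had 5 regions, and the region at its own start was called in every library except those of normoxic monoculture. At Pnpla2-b (chr7:141454962-141456256) percentiles were 21.1 and 5.12 in hypoxic monoculture, 42.5 and 60.5 in normoxic co-culture and 56.8 and 73.1 in hypoxic co-culture. Summits held 19 and 16 fragments in hypoxic monoculture and 29, 43, 38 and 46 in the co-culture libraries. Normoxic monoculture had no peak, so monoculture was represented by its hypoxic libraries alone. The co-culture summits lay 7 to 70 bp upstream of the start, and the hypoxic monoculture summits lay 316 and 966 bp downstream of it, inside the gene. The peaks of 5 libraries overlapped the start window printed above, and that of hypoxic monoculture replicate 2 lay wholly downstream of it.

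The remaining Pnpla2 regions lay at or near other genes. Pnpla2-e (chr7:141468347-141469167), at the Cd151 start, was called in all 8 libraries, at 57.8 and 74.9 in normoxic monoculture, 77.8 and 69.5 in hypoxic monoculture, 88.2 and 81.7 in normoxic co-culture and 84.0 and 73.7 in hypoxic co-culture. It was the 1 member region kept in all 8 lists when each was shortened to its strongest 9910 peaks. Pnpla2-a (chr7:141447035-141447875), at the Rplp2 start, was also called in all 8, at 42.3 and 28.4 in normoxic monoculture, 46.7 and 49.9 in hypoxic monoculture, 73.1 and 83.4 in normoxic co-culture and 69.6 and 83.6 in hypoxic co-culture. Its percentiles were higher in co-culture, but the lists differ in length. Fragments divided by the library's median at shared regions overlapped between cultures. They were 0.759 in hypoxic co-culture replicate 1 and 0.8 and 0.808 in normoxic monoculture. Pnpla2-d (chr7:141467298-141467923), overlapping Cd151 and Gm10575, was called at 26.3 in hypoxic monoculture replicate 2, 8.38 and 20.5 in normoxic co-culture and 27.5 and 39.0 in hypoxic co-culture. Pnpla2-c was called in 1 library, hypoxic monoculture replicate 1, at percentile 1.97.

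Lpl, the lipoprotein lipase, had a region at its lower-coordinate, 5′ end that was called in 6 libraries and in neither library of normoxic monoculture. Lpl-a (chr8:68880086-68880712) had percentiles of 80.8 and 77.7 in hypoxic monoculture, 52.6 and 56.9 in normoxic co-culture and 85.6 and 76.6 in hypoxic co-culture. Summits held 55 and 60, 35 and 35, and 72 and 54 fragments in the same order, and lay within 66 bp of the gene's end. The 4 hypoxic libraries were above the 2 normoxic co-culture libraries in both measures. Scaled to the shared-region signal of normoxic monoculture replicate 1, the 6 peaks would have had −log10 p from 9.37 to 20.6, where the weakest peak called in that list had 4.19.

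The other Lpl regions lay beyond the opposite end of the gene and did not follow the same order. Lpl-c (chr8:68914562-68915250), 7630 bp beyond the gene, was called in all 8 libraries, at 47.1 and 74.7 in normoxic monoculture, 45.9 and 42.2 in hypoxic monoculture, 58.3 and 31.4 in normoxic co-culture and 34.5 and 24.5 in hypoxic co-culture. Lpl-b (chr8:68907853-68908915), 921 bp beyond the gene, was called in 7 libraries at 2.46 to 36.9. At both regions the highest percentile was in normoxic monoculture replicate 2.

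Apoe, the apolipoprotein, had a weak region at its start in 7 libraries. Apoe-a (chr7:19698844-19699938) had percentiles of 16.7 in normoxic monoculture replicate 1, 49.1 and 37.7 in hypoxic monoculture, 30.2 and 11.6 in normoxic co-culture and 27.9 and 8.68 in hypoxic co-culture. Summits held 11, 28, 23, 18, 14, 22 and 13 fragments in that order, and replicate 2 of normoxic monoculture had no peak. Both hypoxic monoculture percentiles lay above all 4 of co-culture, the co-culture groups overlapped each other, and no contrast called the region gained or lost on the lists as deposited. With a −log10 q of at least 5 it was gained with hypoxia in monoculture, as 1 of 7 regions (18.7% of all regions). Its summits spread from 588 bp on one side of the start at 19699188 to 48 bp on the other. The nearest region outside the window, 14084 bp from the gene at Tomm40, was called in all 8 libraries at 96.3 to 99.7.

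Abca1, the cholesterol exporter, had 3 regions, none of them gained or lost in any contrast on the lists as deposited. Abca1-a (chr4:53120296-53120750), inside the gene 39145 bp from its start, had percentiles of 27.3 and 24.7 in normoxic monoculture, 51.8 and 57.2 in hypoxic monoculture, 16.1 in normoxic co-culture replicate 2 and 47.6 in hypoxic co-culture replicate 1. It was called in both libraries of each monoculture group and in 1 library of each co-culture group. The start region, Abca1-c (chr4:53159670-53160207), was called in 5 libraries at 14.5 to 39.6 with 10 to 22 fragments at the summit, and no group lacked it. Abca1-b was called in 1 library, normoxic co-culture replicate 1, at 46.4.

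Abcg1, the companion exporter (chr17:31057694-31117984), had no region within 10 kb in any library. Its nearest region was 18795 bp away and was called in 5 libraries at 28.5 to 46.4. Of 21883 protein-coding genes, 30.5% had no region within 10 kb, and of 1641 genes with a span within 20% of that of Abcg1, 15.6% had none. No peak list gives a count at uncalled places, so accessibility at Abcg1 below the calling threshold was not measured.

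Nr1h3, which encodes liver X receptor alpha, had 3 regions, each with fewest calls in normoxic monoculture and its highest percentile in hypoxic co-culture replicate 1. Normoxic monoculture also had the fewest calls over all regions, 30.8% and 23.1% against 51.5% to 70.7% in the other libraries. Hypoxic co-culture replicate 1 had the longest list, and at Nr1h3-b replicate 2 of that group lay below both hypoxic monoculture libraries. Nr1h3-c (chr2:91202143-91203019), over the upper end of Nr1h3 and the Acp2 start, had percentiles of 68.6 and 40.3 in hypoxic monoculture, 49.1 and 37.2 in normoxic co-culture and 76.9 and 72.4 in hypoxic co-culture. Nr1h3-b (chr2:91196635-91197162), inside the gene 1519 bp from an annotated start, had 54.0 and 41.3, 25.3 and 23.9, and 59.8 and 30.3 in the same order. Neither was called in normoxic monoculture. Nr1h3-a (chr2:91182918-91184116), over the other end of Nr1h3 and the Madd start, was called in 7 libraries at 15.7 to 71.1, with 15.7 in the 1 normoxic monoculture library that had it. Summits at Nr1h3-c held 47 and 41 fragments in hypoxic co-culture and 18 to 31 in the other 4 libraries that had it. Because Nr1h3-c and Nr1h3-a lie over starts of neighbouring genes, they cannot be assigned to Nr1h3 from these lists.

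**Figure D2:**
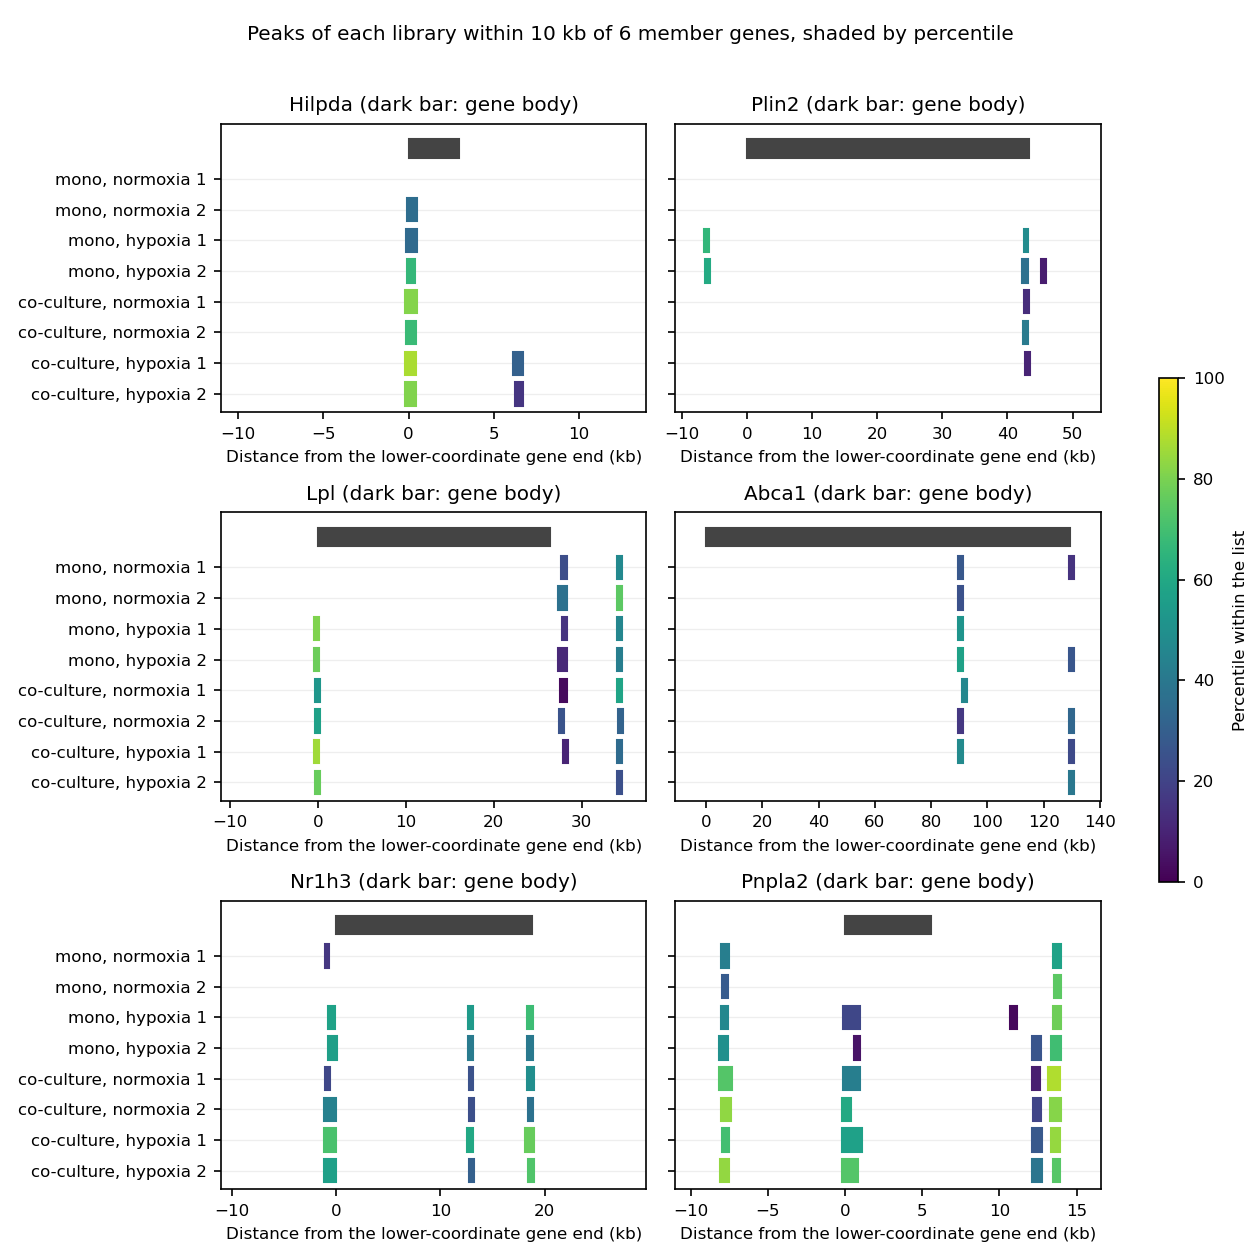
Peaks of the 8 libraries (rows, group and replicate) at 6 genes, placed by distance in kb from the lower-coordinate end of the gene body (dark bar) and shaded by percentile within the list; narrow peaks are drawn at a minimum width. Lpl-a at 0 kb is missing from the 2 normoxic monoculture rows, and the peak below 0 kb at Plin2 is present in the 2 hypoxic monoculture rows alone.

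Hypoxia in monoculture added peaks at these genes and removed none. Gained regions were Plin2-a, Plin2-b, Lpl-a, Nr1h3-b, Nr1h3-c and Pnpla2-b, or 6 of 20 member regions, against 17.7% of all regions of the series. None was lost, against 0.179% of all regions. With 6 of 20 regions the member share was 30.0%, and the low signal of normoxic monoculture lies on one side of this contrast. The genes were chosen with earlier results of these data known, so this share is not that of an independent set. Scaling all lists to equal background coverage left the same 6 gained, and scaling to equal fragments at shared regions left 5, without Pnpla2-b. Each scaling multiplied fragments and background alike, so their ratio within a peak was kept. With a −log10 q of at least 5, 7 were gained (18.7% of all regions), 5 of them shared with the 6 above. Pnpla2-b dropped out, and Nr1h3-a and Apoe-a came in. When each list was cut to its strongest 9910 peaks, 1 region was gained (Lpl-a, with 3.59% of all regions) and 3 were lost (Abca1-a, Pnpla2-a and Lpl-c, with 2.49% of all regions).

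Hypoxia in co-culture moved 1 region by the same rule. Hilpda-b was gained, 1 of 20 against 6.09% of all regions, and none was lost, against 2.05%. In lists of equal length, 2 regions were gained, Nr1h3-a and Nr1h3-c (2.64% of all regions), and none was lost (2.78%). Without normoxic co-culture replicate 2, 2 regions were gained (9.27% of all regions) and 1 was lost (5.79%), and without hypoxic co-culture replicate 1, 2 were lost (6.44%).

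Co-culture in normoxia also added peaks and removed none, in a contrast that shares the normoxic monoculture libraries with the first. Plin2-b, Lpl-a, Nr1h3-b, Nr1h3-c, Pnpla2-b and Pnpla2-d were gained, 6 of 20 against 12.5% of all regions, and none was lost, against 0.181%. Both scalings for depth kept these 6, but neither changed the ratio of fragments to background within a peak. Scaled to the shared-region signal of normoxic monoculture replicate 2, the weakest peak had −log10 p 4.16 at Plin2-b and 4.31 at Pnpla2-d. The weakest peak called in that list had 4.07. With a −log10 q of at least 5, 6 were gained (12.5% of all regions), with Nr1h3-a in place of Pnpla2-d. In lists of equal length none was gained (2.37% of all regions) and 1, Abca1-a, was lost (1.43%). Without normoxic co-culture replicate 2, 1 was lost (0.537% of all regions). Glioma and glial marker genes with a peak numbered 1 in each normoxic monoculture library and 4 and 7 in normoxic co-culture, and their part in these gains was not tested.

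Co-culture in hypoxia gained Hilpda-b, 1 of 20 against 5.83% of all regions, and lost Plin2-a, 1 of 20 against 3.76%. In lists of equal length, Nr1h3-a and Pnpla2-a were gained (3.58% of all regions) and none was lost (3.4%). Lost regions numbered 4 without hypoxic co-culture replicate 1 (11.4% of all regions), and 2 without hypoxic monoculture replicate 1 (11.4%) or replicate 2 (8.12%). Gained regions numbered 3 without hypoxic monoculture replicate 2 (8.65% of all regions). Glial marker genes with a peak numbered 0 to 2 in hypoxic monoculture and 6 to 8 in hypoxic co-culture.

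**Figure D3:**
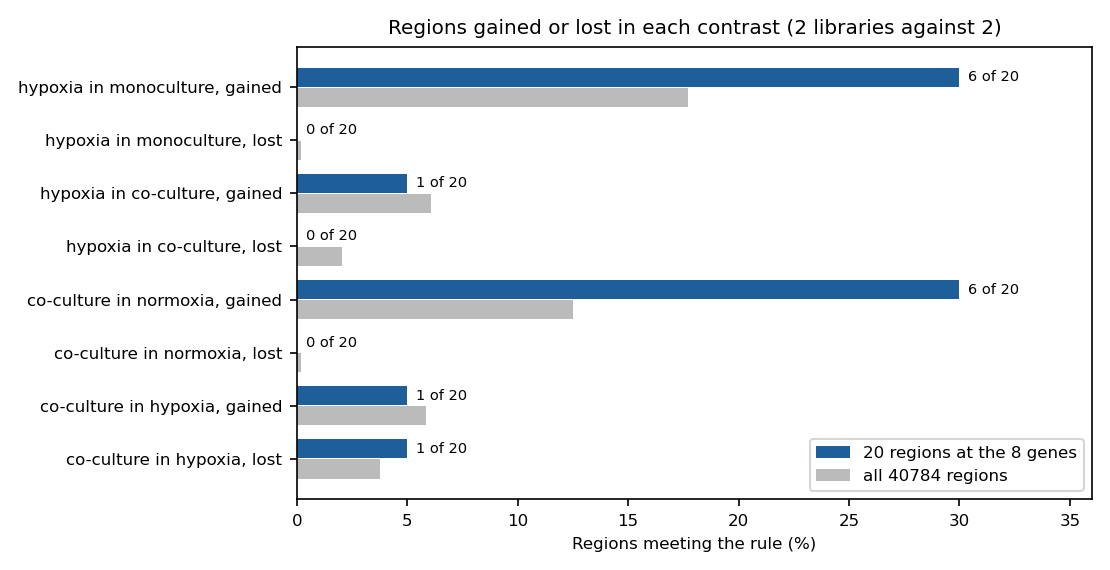
Share of regions (x axis, %) gained or lost in each of the 4 contrasts (2 libraries against 2), for the 20 regions at the 8 genes (blue, with counts) and for all 40784 regions (grey). The member bars reach 30.0% in the 2 gains against normoxic monoculture, where the grey bars are at 17.7% and 12.5%, and 5.0% or 0 elsewhere.

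No region at the 8 genes separated all 4 libraries of one oxygen level or culture from the other 4. Over all regions, 2.08% were called in all 4 hypoxic and no normoxic libraries and 0.0196% the reverse, while 1.98% were called in all 4 co-culture and no monoculture libraries and 0.027% the reverse. Regions called in 6 libraries and missing from both of normoxic monoculture alone made up 4 of 20 (Lpl-a, Nr1h3-b, Nr1h3-c and Pnpla2-b) against 4.97% of all regions. Counting every region with no peak in either normoxic monoculture library gave 11 of 20 (55.0%) against 63.8% of all regions. Those called in all 8 made up 3 of 20 (Lpl-c, Pnpla2-a and Pnpla2-e) against 15.6%, and those called in 1 library 3 of 20 against 26.7%. Member regions were called in a median of 6 libraries and all regions in a median of 4.

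The number of called regions per gene was compared between oxygen levels and between cultures with a two-sided exact permutation test over the 8 libraries, with labels permuted within the other factor. The smallest p this design allows is 0.0556, so none of the 14 tests could pass 0.05. Nr1h3 had a mean of 3.0 called regions in hypoxia and 1.75 in normoxia, and the same means in co-culture and monoculture (exact permutation p = 0.333 for each). Pnpla2 had 4.0 against 3.0 for each factor (exact permutation p = 0.333), and with a window of 20 kb its culture difference was 3.0 (exact permutation p = 0.111). Hilpda had 1.5 against 0.75 for each (exact permutation p = 0.167). Plin2 had 1.5 in hypoxia against 0.5 in normoxia (exact permutation p = 0.333) and 0.75 in co-culture against 1.25 in monoculture (exact permutation p = 0.722), the 1 gene with fewer regions in co-culture. Apoe and Lpl differed by 0.25 and Abca1 by 0. After Benjamini-Hochberg adjustment over the 14 tests the lowest exact permutation p was 0.666.

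At the 3 regions called in all 8 libraries, fragments at the summit were divided by the library's median at shared regions. This measure was chosen after the values were seen. Pnpla2-a, at the Rplp2 start, had a ratio of 1.05 ± 0.226 (SD, n = 4) in co-culture and 0.662 ± 0.164 (SD, n = 4) in monoculture, a difference of 0.393 (two-sided exact permutation p = 0.0556, the smallest possible, adjusted p = 0.133 over 6 tests). Glial marker genes with a peak numbered 0 to 2 in monoculture and 4 to 8 in co-culture, and their part in this difference was not tested. Between oxygen levels Pnpla2-a differed by -0.189 (exact permutation p = 0.167), and by -0.0653 without hypoxic co-culture replicate 1. Lpl-c went the other way, with 0.573 ± 0.183 (SD, n = 4) in co-culture and 0.967 ± 0.383 (SD, n = 4) in monoculture (exact permutation p = 0.0556, adjusted 0.133). Between oxygen levels Lpl-c differed by -0.403 (exact permutation p = 0.111). Its ratios were 1.08 and 1.46 in normoxic monoculture, 0.673 and 0.655 in hypoxic monoculture, 0.844 and 0.5 in normoxic co-culture and 0.5 and 0.447 in hypoxic co-culture, so normoxic monoculture alone was above 1. The groups of 4 overlapped in all 6 of these comparisons. Pnpla2-e differed by 0.216 between cultures and by -0.187 between oxygen levels (exact permutation p = 0.111 for each). The culture difference was 0.14 without normoxic monoculture replicate 1, and the oxygen difference was -0.111 without replicate 2.

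**Figure D4:**
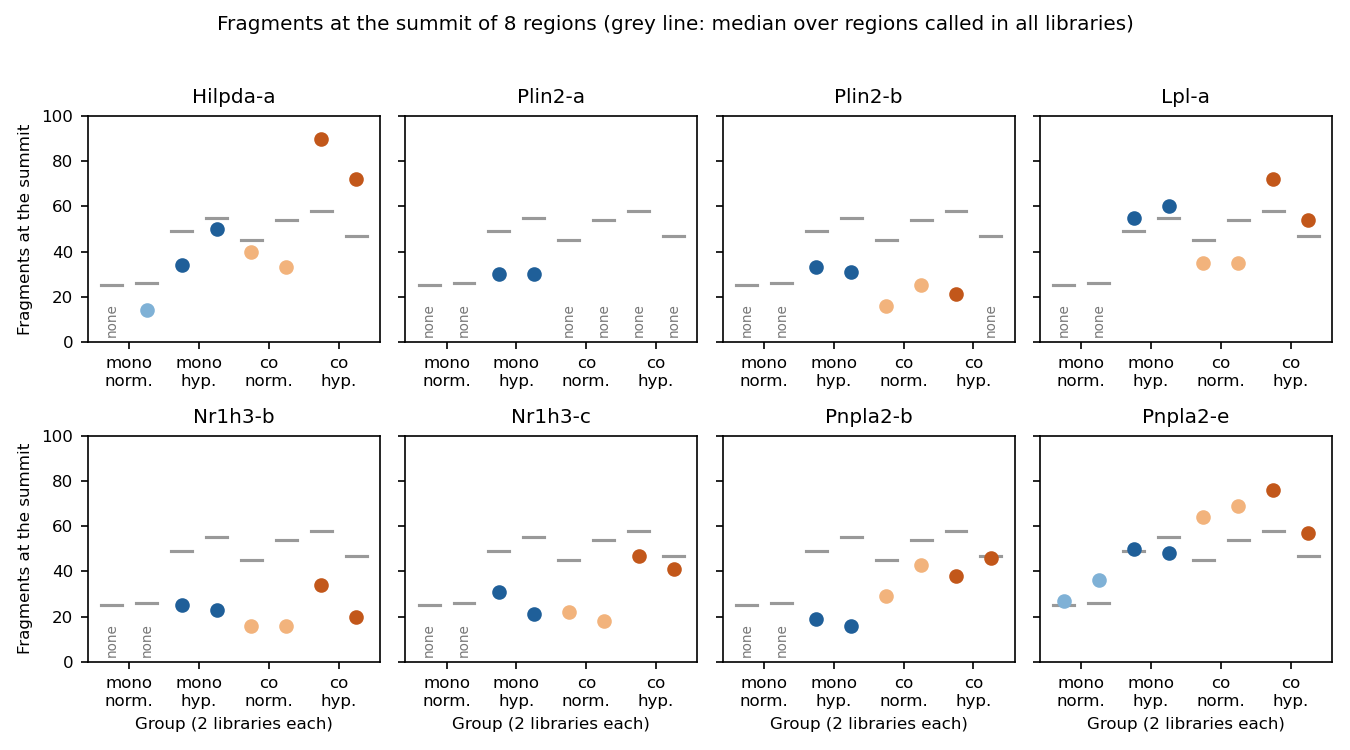
Fragments at the summit (y axis, number, recovered from the deposited fold and −log10 p) in the 2 libraries of each group (points) for 8 regions, with each library's median over 6314 regions under 3000 bp called in all 8 libraries (grey lines); "none" marks no peak. At Hilpda-a the hypoxic co-culture points, 90 and 72, lie above their grey lines, and at Plin2-a the 2 points of hypoxic monoculture are both at 30.

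The wider pathway was described with 107 other genes in 5 lists, also chosen with earlier results of these data known. Of these, 36 had at least 1 region gained with hypoxia in monoculture (33.6%, against 23.0% of 21883 protein-coding genes) and none had one lost (0.398% of all genes). With hypoxia in co-culture 20 had a gain (18.7%, against 9.5%) and 7 a loss (6.54%, against 3.29%). With co-culture in normoxia 32 had a gain (29.9%, against 21.4%) and none a loss (0.215%). With co-culture in hypoxia 21 had a gain (19.6%, against 10.5%) and 5 a loss (4.67%, against 5.04%). The listed genes more often had any region at all, since 7 of 107 had none (6.54%) against the 30.5% given above. Neither these shares nor those of the single lists below are adjusted for it. A share above that of all genes is therefore not read as an excess. All sterol transport, cholesterol synthesis and fatty acid genes had a region, as did 23 of 26 droplet and 14 of 18 uptake genes. A gene had a region called in all 4 hypoxic and no normoxic libraries for 4 of 107 (3.74%, against 3.11%), and in all 4 co-culture and no monoculture libraries for 6 of 107 (5.61%, against 3.54%).

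Among the 5 lists, uptake and lipid-binding genes had the highest share of gains against normoxic monoculture, 10 of 18 (55.6%) with hypoxia and 10 of 18 with co-culture, against 23.0% and 21.4% of all genes. Of 12 microglia and macrophage marker genes, 8 (66.7%) and 7 (58.3%) had a gain in the same contrasts. In the contrasts without normoxic monoculture the uptake genes with a gain numbered 2 of 18 with hypoxia in co-culture (11.1%, against 9.5% of all genes) and 3 of 18 with co-culture in hypoxia (16.7%, against 10.5%), and the marker genes 1 (8.33%) and 0 of 12. Within the uptake list a region of Cd36, a fatty acid scavenger receptor, was called in all 4 hypoxic and no normoxic libraries at 59.0 to 84.6. Regions of Slc27a1, a fatty acid transporter (20 to 79.8), and Lrp1, a lipoprotein receptor (17.1 to 49.3), were called in all 4 co-culture and no monoculture libraries.

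Of 26 droplet coat, assembly and breakdown genes, 8 had a gain with hypoxia in monoculture (30.8%, against 23.0% of all genes) and 5 with co-culture in normoxia (19.2%, against 21.4%). Acsl1, which activates fatty acids for esterification or oxidation, had a region in all 4 hypoxic and no normoxic libraries at 13.5 to 69.7. Of 19 liver X receptor partner, target and sterol transport genes, 6 had a gain in each of these contrasts (31.6%, against the same 23.0% and 21.4%). In the contrasts without normoxic monoculture, 4 of these 19 had a gain with hypoxia in co-culture (21.1%, against 9.5%) and 5 with co-culture in hypoxia (26.3%, against 10.5%), and the droplet genes numbered 3 of 26 in each (11.5%). Of 12 glioma and glial marker genes, 4 had a gain with co-culture in hypoxia (33.3%). With co-culture in normoxia 2 had a gain (16.7%) and 1 a loss (8.33%). Rxrb, a heterodimer partner of liver X receptors, had a region in all 4 co-culture and no monoculture libraries at 8.45 to 61.7.

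Of 23 cholesterol synthesis genes, 6 had a gain with hypoxia in monoculture (26.1%, against 23.0% of all genes) and 4 with hypoxia in co-culture (17.4%, against 9.5%). All 23 had a region within 10 kb, and the shares of all genes include the 30.5% without one. With co-culture, 1 had a gain at each oxygen level (4.35%, against 21.4% in normoxia and 10.5% in hypoxia). Fdps, which makes farnesyl diphosphate, had a region in all 4 hypoxic and no normoxic libraries at 39.3 to 78.4. Of 21 fatty acid synthesis and oxidation genes, 6 (28.6%) and 7 (33.3%) had a gain with hypoxia in monoculture and co-culture, against 23.0% and 9.5% of all genes. With co-culture, 10 (47.6%) and 9 (42.9%) had a gain in normoxia and hypoxia, against 21.4% and 10.5%. Losses with hypoxia in co-culture, seen at 3.29% of all genes, were found at 3 of 21 fatty acid genes (14.3%), 2 of 19 sterol transport genes (10.5%), 1 of 23 cholesterol synthesis genes (4.35%), 1 of 26 droplet genes (3.85%) and no uptake gene. Elovl6, a fatty acid elongase, had a region in all 4 hypoxic and no normoxic libraries at 67.4 to 88.4. Scd1, a desaturase (41.9 to 86.6), and Acly, which makes cytosolic acetyl-CoA (27.2 to 67.1), had regions in all 4 co-culture and no monoculture libraries. Of 12 glioma and glial marker genes, 1 had a region in all 4 co-culture and no monoculture libraries (8.33%, against 3.54% of all genes). It was Cdh2, at 37.7 to 73.6. Gfap, Sox2 and Nes had no peak in monoculture and each lacked one in 1 normoxic co-culture library, while Slc1a3 had peaks in both cultures. The part of the glioma cells in the co-culture regions named here was not tested. Ptprc had 2 regions in all 4 hypoxic and no normoxic libraries, at 65.8 to 78.5 and 26.3 to 66.3.

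Among the listed genes on other chromosomes, the one whose best percentile within 10 kb lay closest to that of Hilpda over the 8 libraries was Srebf1, a regulator of lipid synthesis genes, with a mean absolute difference of 6.14 percentile points among 95 genes compared. Srebf1, like Hilpda, had no peak in normoxic monoculture replicate 1, and stood at 35.0 in replicate 2, 44.3 and 43.6 in hypoxic monoculture, 74.2 and 66.2 in normoxic co-culture and 81.1 and 80.4 in hypoxic co-culture. For Pnpla2 it was Lpin3, a phosphatidate phosphatase (5.88 points, 93 genes), where the best percentile of Pnpla2 came in every library from Pnpla2-e or Pnpla2-a, at the starts of Cd151 and Rplp2, and not from its own start. For Abca1 it was Stard3, a sterol carrier (10.9 points, 98 genes). Likeness over 8 libraries that share a culture and depth pattern is given as a description.

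The farthest region inside the 10 kb limit was Lpl-c at 7630 bp, and the nearest outside were those of Apoe at 14084 bp, Pnpla2 at 14367 bp and Plin2 at 14407 bp.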

How the data were processed

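ATAC-seq was measured in 8 libraries, 4 groups of 2, and 1 peak list per library was deposited. Per the submitters' processing notes, the tools were Trimmomatic 0.36, HISAT2 2.1.0, Picard, SAMtools, deepTools and MACS2 2.1.1.2 and the build was mm10; their settings and any shifting of reads for Tn5 are not given in the sources used here. Each deposited peak has a score, a fold enrichment at its summit (a linear ratio), a −log10 p and −log10 q value, and a summit offset.

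The members and all gene lists were chosen with earlier results of these data known. Peaks were merged into regions at 1 bp of overlap and assigned to genes within 10 kb (RefSeq, GRCm38.p6), and a gene may share a region with its neighbour. Strand was taken from the RefSeq promoter table where it held the gene. Percentiles rank −log10 p within a list. Regions were counted as gained or lost when called in both libraries of one group and neither of the other, and counts per gene were tested by exact permutation within the other factor, where p-values measure the spread between 2 cultures per group. Fragments at the summit and local background were solved from the deposited fold, taken as (fragments + 1) over (background + 1), and the Poisson −log10 p, which gave a whole number within 0.001 for 99.8% to 99.9% of peaks per library. The fewest at any called summit were 6 to 8, which limits what an uncalled region can mean. These fragments are not read totals, which the lists do not give. Regions given library by library were each gene's highest-ranked region by median percentile and those gained or lost, up to 4 a gene; other regions given this way were chosen after their values were seen. From other lists, up to 3 genes were named whose region separated all 4 libraries of one level from the other 4, and for likeness the gene with the smallest mean absolute difference in best percentile (0 where no peak), for the 3 closest members. A gene that this rule names is not reported here. Alternatives were lists of equal length, a −log10 q of at least 5, windows of 250 bp around summits, other overlaps, windows of 5 kb and 20 kb, 2 scalings for depth, a replicate block and leaving out each library. The merging and tests were checked on simulated lists. Python 3.11.15, numpy 2.4.6, pandas 2.3.3, scipy 1.17.1 and matplotlib 3.10.9 were used.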

Additional observations from a re-analysis of the deposited data

How the results depend on the processing

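With each list cut to its strongest 9910 peaks, member regions gained with hypoxia in monoculture fell from 6 to 1 and those lost went from 0 to 3; gained with hypoxia in co-culture went from 1 to 2; gained with co-culture in normoxia went from 6 to 0 and lost from 0 to 1; gained with co-culture in hypoxia went from 1 to 2 and lost from 1 to 0. In the same lists the difference in called regions per library was 0 at Hilpda (oxygen) and Apoe (both factors), -0.25 at Lpl (both) where it had been 0.25, -0.5 at Abca1 (both) where it had been 0, and -0.5 at Pnpla2 (oxygen) where it had been 1.0; it was 0.25 (oxygen, from 1.0) and -0.25 (culture, from -0.5) at Plin2, 0.75 at Nr1h3 (culture, from 1.25) and 0.5 at Hilpda (culture, from 0.75). A −log10 q of at least 5 gave 0 for culture at Apoe and Lpl, 0.25 for both factors at Abca1, 0.5 for oxygen at Apoe and Lpl, and -0.25 for culture at Plin2. A window of 5 kb gave 0 lost with co-culture in hypoxia, 0 for culture at Plin2, and 0.5 for oxygen at Plin2 and both factors at Pnpla2. A window of 20 kb gave 1 lost with hypoxia in co-culture, 3.0 for culture at Pnpla2 and 1.5 for oxygen at Plin2. Scaling to equal fragments at shared regions, chosen after seeing the data, gave 0 for culture at Apoe and for both factors at Lpl, 0.5 for oxygen at Apoe and Pnpla2, 1.5 for culture at Pnpla2 and -0.25 for culture at Plin2. The cause of these differences was not tested. Without 1 library at a time, regions gained and lost ranged over 7 to 8 and 0 to 0 with hypoxia in monoculture, 1 to 2 and 0 to 2 with hypoxia in co-culture, 6 to 8 and 0 to 1 with co-culture in normoxia, and 1 to 3 and 1 to 4 with co-culture in hypoxia; a group of 1 library meets the rule more easily. The per-gene differences without 1 library ranged over 0.5 to 1.0 at Hilpda (both), 0.75 to 1.25 (oxygen) and -0.75 to -0.25 (culture) at Plin2, 0 to 0.5 at Apoe and Lpl, -0.25 to 0.25 at Abca1, 1.0 to 1.5 at Nr1h3 and 1.0 to 1.0 at Pnpla2. With the replicate block, the lowest exact permutation p of the 14 tests was 0.25 (smallest possible 0.125), so neither this design nor the one without the block could give a call at 0.05; same-numbered libraries deviated together with r from -0.0348 to 0.146 over 6 pairs of groups, 1 of them over 0.1, so the numbers were not taken as pairing. The planned stricter overlap, a share of the shorter interval, is met by every merged peak and changes nothing by construction. Leaving that overlap out, 79 of the region counts recomputed were within 1.5 times the main count and 17 were not, with 0 against 0 counted as within. Of the per-gene differences recomputed without the replicate block, 160 kept their sign or stayed at 0, 33 moved to or from 0 and 3 changed sign. Leaving out the replicate block, which cannot move a difference, the relative-signal differences kept their direction in all 54 recomputations; without 1 library they ranged over -0.498 to -0.307 (oxygen) and -0.49 to -0.299 (culture) at Lpl-c, -0.314 to -0.0653 and 0.268 to 0.517 at Pnpla2-a, and -0.263 to -0.111 and 0.14 to 0.292 at Pnpla2-e.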
